A study of Mus musculus with 16 samples.

Results

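The NADPH oxidases and superoxide dismutases make and remove superoxide, and 9 of their genes were followed here in the mouse aorta. The members were the genes with the GENCODE GRCm38 symbols Cyba, Cybb, Nox4, Nox1, Ncf1, Ncf4, Sod1, Sod2 and Sod3, which are 9 of the 52636 genes in the count table. Of the 9 members, 8 passed the filter on low counts, which 17125 genes of the table passed, and Nox1 did not. Messenger RNA levels were read from whole descending thoracic aorta of mice in 16 libraries, 4 in each of 4 groups that crossed inbred strain with treatment. The groups were C57BL/6J with angiotensin II (AngII), C57BL/6J control, 129S6/SvEvTac with AngII, and 129S6/SvEvTac control. AngII is a peptide hormone that constricts vessels and was used here to induce hypertension. The sources used here state neither the dose and duration of AngII nor what the controls received, and they leave out the age and sex of the mice and whether each library came from a separate animal. The p-values therefore measure the spread between these libraries, which may be technical.

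NADPH oxidases move electrons from NADPH across a membrane to oxygen. In phagocytes the catalytic subunit NOX2, encoded by Cybb, sits in the membrane with the small subunit p22phox, encoded by Cyba, and is switched on when the cytosolic subunits encoded by Ncf1 and Ncf4 dock to it together with other cytosolic partners and a Rac GTPase. Vascular smooth muscle makes mainly the constitutively active catalytic subunit NOX4, which also needs p22phox and releases mostly hydrogen peroxide. The superoxide dismutases turn superoxide into hydrogen peroxide and oxygen: Sod1 in the cytosol, Sod2 in mitochondria, and Sod3 outside the cell, where it binds the matrix of the vessel wall.

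The promoters of 3 members that were called changed by AngII in C57BL/6J are shown so that the upstream sequence can be read beside the values, each from 250 bases before to 50 bases after the RefSeq start site on GRCm38.p6, written 5′ to 3′ on the strand of the gene. Capitals mark GAGGAA, a form of the binding motif of PU.1, a transcription factor of myeloid cells, or its reverse complement. Other forms of that motif were not searched.
Cybb (chrX:9469275-9469574, minus strand): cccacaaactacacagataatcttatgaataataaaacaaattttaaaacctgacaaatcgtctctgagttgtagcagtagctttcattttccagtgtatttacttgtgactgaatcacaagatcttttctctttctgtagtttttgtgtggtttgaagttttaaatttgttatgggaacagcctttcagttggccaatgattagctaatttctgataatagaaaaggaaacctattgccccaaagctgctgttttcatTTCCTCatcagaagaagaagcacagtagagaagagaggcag
Ncf1 (chr5:134229576-134229875, minus strand): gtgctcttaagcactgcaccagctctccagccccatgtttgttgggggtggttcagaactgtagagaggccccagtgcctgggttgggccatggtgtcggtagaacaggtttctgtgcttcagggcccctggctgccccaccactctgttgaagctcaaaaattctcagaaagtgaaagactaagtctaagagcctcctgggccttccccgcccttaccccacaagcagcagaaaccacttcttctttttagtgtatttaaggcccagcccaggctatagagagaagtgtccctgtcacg
Nox4 (chr7:87246399-87246698, plus strand): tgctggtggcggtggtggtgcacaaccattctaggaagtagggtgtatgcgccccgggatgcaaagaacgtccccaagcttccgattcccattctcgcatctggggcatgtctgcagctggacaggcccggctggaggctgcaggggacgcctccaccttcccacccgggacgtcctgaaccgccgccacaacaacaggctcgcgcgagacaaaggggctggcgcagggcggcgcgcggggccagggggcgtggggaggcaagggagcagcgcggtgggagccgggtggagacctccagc
RefSeq promoters were matched for 7 of the 9 members, and Ncf4 and Sod3 had no entry. GAGGAA, searched on both strands, was found once just past the Cybb start site and once each in the Nox1 and Sod2 promoters, and it was not found in those of Ncf1, Nox4, Cyba and Sod1. Of all 27025 RefSeq promoters of the same length, 28.3% held it. The core of the antioxidant response element, TGACNNNGC on either strand, was found in the Sod1 promoter alone among the 7, and 12.5% of all promoters held it. A match describes letters in this window and is not a measured site.

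Library totals ran from 42116120 to 121573945 counts, and the highest was 129S6/SvEvTac AngII replicate 5. Levels below are CPM, counts scaled to a common library total with TMM factors. All 8 smooth muscle markers were above 0 in every library, and their summed level ran from 12769 to 30431 CPM in C57BL/6J AngII libraries, against 37916 to 47379 CPM across the other 3 groups. C57BL/6J AngII replicates 1 and 5 stood apart, with the highest summed levels of the 12 macrophage markers (2246 and 2477 CPM) and of the 8 adipocyte markers (2355 and 1466 CPM). Whole tissue was measured, so fewer cells of a type and less RNA per cell cannot be told apart.

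In C57BL/6J aortas AngII went with a rise of the phagocyte oxidase genes. Ncf1 rose 6.25-fold, Ncf4 5.19-fold and Cybb 3.65-fold, while Nox4, the most abundant catalytic subunit in the aorta, was 1.64-fold lower. The membrane partner Cyba and the 3 superoxide dismutases did not pass the test. Of the 8 members tested, 3 were called higher and 1 lower, on a background of 21.8% of all tested genes called higher and 17.1% called lower. A call is an adjusted p below 0.05 by edgeR's quasi-likelihood test with Benjamini-Hochberg adjustment over 17125 genes. The members' median log2 fold change was 0.25, beside 0.0092 for all tested genes.

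Ncf1, which encodes the organizer subunit p47phox (ENSMUSG00000015950.13, GRCm38 chr5:134220053-134229625, minus strand), stood at 43.1, 31.1, 20.1 and 37.1 CPM in C57BL/6J AngII replicates 1, 2, 3 and 5, against 4.31, 3.82, 7.30 and 5.59 CPM in the C57BL/6J controls of the same numbers. The groups did not overlap, and the lowest AngII library lay well above the highest control. Its log2 fold change was 2.64 ± 0.38 (SE, n = 4 each), with an adjusted p of 7.92e-05 by edgeR. Part of its exons, 408 bases, lies antisense to Gtf2ird2, and since the strandedness of the counts is not stated, those reads cannot be assigned with certainty.

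Ncf4 encodes p40phox, which binds a phosphoinositide on phagosomes (ENSMUSG00000071715.11, chr15:78244801-78262580, plus strand). It stood at 7.70, 6.45, 5.12 and 8.47 CPM in C57BL/6J AngII replicates 1, 2, 3 and 5, against 1.44, 0.798, 1.98 and 1.11 CPM in the controls. Every AngII library was above every control, at a low level throughout. Its log2 fold change was 2.38 ± 0.32 (edgeR adjusted p = 4.82e-05).

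Cybb, the catalytic subunit NOX2 (ENSMUSG00000015340.10, chrX:9435252-9487771, minus strand), stood at 67.6, 22.4, 36.6 and 85.8 CPM in C57BL/6J AngII replicates 1, 2, 3 and 5, against 13.6, 12.1, 19.3 and 13.3 CPM in the controls. Replicates 1 and 5 were far above replicates 2 and 3, and replicate 2 lay closest to the controls, yet the groups did not overlap. AngII libraries exceeded controls by a log2 fold change of 1.87 ± 0.33 (edgeR adjusted p = 0.000466). Without C57BL/6J AngII replicates 1 and 5 the 3 genes were still called, with log2 fold changes of 2.27 for Ncf1, 2.10 for Ncf4 and 1.0 for Cybb.

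Nox4 (ENSMUSG00000030562.17, chr7:87246096-87398710, plus strand) stood at 185, 222, 470.1 and 287 CPM in C57BL/6J AngII replicates 1, 2, 3 and 5, against 502, 474, 484 and 449.5 CPM in the controls. Of the AngII libraries, 3 were below all controls and replicate 3 fell among them, so the groups overlapped. The log2 fold change was -0.71 ± 0.21 (edgeR adjusted p = 0.0134). The call was lost when only the 2 C57BL/6J groups were fitted (-0.73, adjusted p = 0.0573), with the adipocyte score (-0.37, 0.261) or the macrophage score (0.071, 0.942) as a covariate, and without C57BL/6J AngII replicates 1 and 5 (-0.48, adjusted p = 0.104).

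Cyba, whose product p22phox both catalytic subunits need (ENSMUSG00000006519.11, chr8:122424776-122432930, minus strand), stood at 56.2, 48.3, 42.2 and 56.0 CPM in C57BL/6J AngII replicates 1, 2, 3 and 5, against 41.1, 42.4, 53.8 and 46.1 CPM in the controls. The groups overlapped almost fully. For Cyba the log2 fold change was 0.14, with a 95% interval of -0.09 to 0.38 (edgeR adjusted p = 0.325).

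Nox1, a catalytic subunit best known from the colon and also described in vascular smooth muscle (ENSMUSG00000031257.14, chrX:134086421-134221956, minus strand), was near absent from the counts. No count was recorded in any of the 8 C57BL/6J libraries, while 129S6/SvEvTac AngII replicate 4 had 4 counts and 129S6/SvEvTac control replicates 1, 2 and 3 had 5, 3 and 2. A library with 0 counts still allows a level of up to 3 counts, which is 0.0262 to 0.0757 CPM across the 16 libraries, counting error only. No comparison was made for Nox1, and 399 bases of its exons lie antisense to Cstf2.

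**Figure D1:**
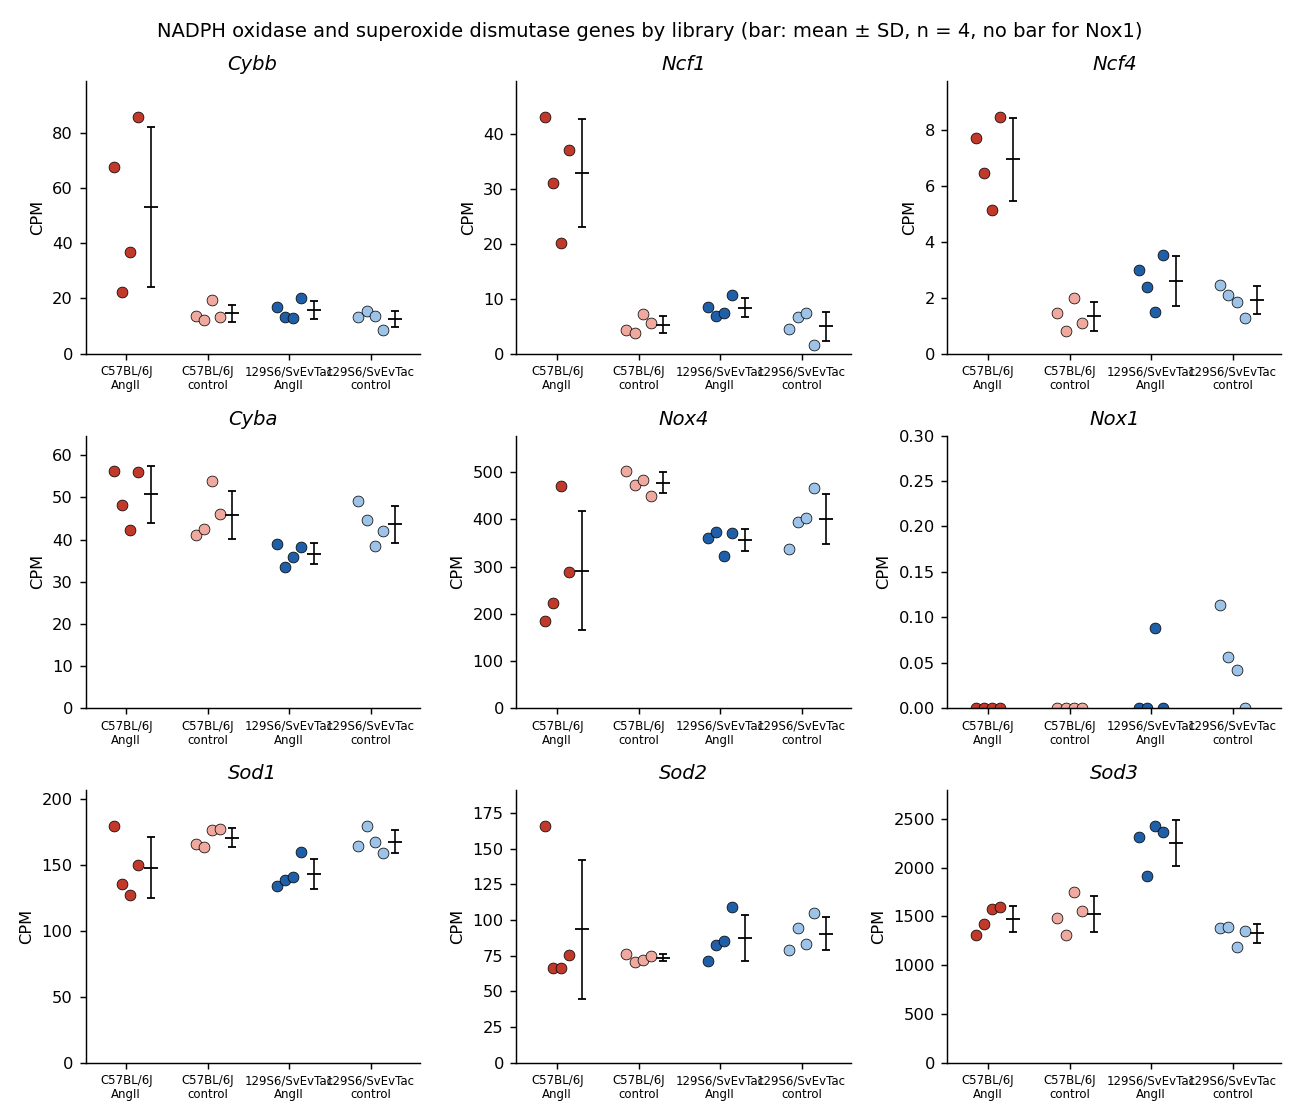
Level of each of the 9 members in CPM on a linear axis from 0, 1 point per library for the 4 groups, with the mean and SD of 4 libraries beside the points except for Nox1. Ncf1 in C57BL/6J AngII libraries sits between 20.1 and 43.1 CPM, above all other libraries, and Sod3 in 129S6/SvEvTac AngII libraries sits between 1909 and 2431 CPM, above all other libraries.

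None of the 3 superoxide dismutases was called in C57BL/6J. Sod1 (ENSMUSG00000022982.9, chr16:90220754-90226329, plus strand) stood at 179.6, 135, 127 and 150.3 CPM in C57BL/6J AngII replicates 1, 2, 3 and 5, against 166, 164, 177 and 177 CPM in the controls. Replicates 2, 3 and 5 were below every control and replicate 1 above them, and the log2 fold change was -0.21 ± 0.10 (edgeR adjusted p = 0.101). Without C57BL/6J AngII replicate 1 it was -0.30 and passed the test. It passed in 6 of 27 alternatives. The others were library size only, the adipocyte or the macrophage score as a covariate, and omission of C57BL/6J AngII 1 with either C57BL/6J AngII 5 or 129S6/SvEvTac AngII 5.

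Sod2, the mitochondrial manganese enzyme (ENSMUSG00000006818.4, chr17:13006846-13040063, plus strand), stood at 166, 66.3, 66.4 and 75.4 CPM in C57BL/6J AngII replicates 1, 2, 3 and 5, against 76.1, 70.6, 72.3 and 74.9 CPM in the controls. Replicate 1 alone was high, and the other AngII libraries lay at or just below the controls. The log2 fold change was 0.35, with a 95% interval of -0.17 to 0.86 (edgeR adjusted p = 0.273).

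Sod3, the extracellular enzyme (ENSMUSG00000072941.5, chr5:52363791-52371418, plus strand), stood at 1309, 1423, 1574 and 1597 CPM in C57BL/6J AngII replicates 1, 2, 3 and 5, against 1481, 1307, 1749.9 and 1555 CPM in the controls. The groups overlapped. For Sod3 the log2 fold change was -0.05, with a 95% interval of -0.27 to 0.18 (edgeR adjusted p = 0.767).

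Per kilobase of exon, Sod3 stood highest of the members in all 4 groups, at a mean of 395 ± 36.2 CPM per kb in C57BL/6J AngII libraries and 407 ± 49.1 CPM per kb in their controls (SD, n = 4). In C57BL/6J controls the order of the means below it was Nox4 (56.4 CPM per kb), Cyba (44.1), Sod1 (43.1), Sod2 (7.34), Cybb (2.51), Ncf1 (1.43), Ncf4 (0.660) and Nox1 at 0. Cyba and Sod1 had overlapping ranges there, while Nox4 at 53.1 to 59.3 CPM per kb was above the Cyba range of 39.5 to 51.8, and the ranges of Sod2, Cybb, Ncf1 and Ncf4 did not overlap. In C57BL/6J AngII libraries Cyba (48.8) and Sod1 (37.3) had means above that of Nox4 (34.4 ± 14.9), whose range of 21.9 to 55.5 CPM per kb took in both. Sod2, Cybb and Ncf1 had nearly equal means there, at 9.35, 9.14 and 8.96 CPM per kb, with overlapping ranges. In 129S6/SvEvTac the order was Sod3, Nox4, Sod1, Cyba, Sod2, Cybb, Ncf1, Ncf4 and Nox1 with AngII and in controls, and Sod3 stood at 603 ± 63.1 CPM per kb with AngII and 355 ± 25.8 CPM per kb in controls. Each length was the union of all annotated exons of a gene. It was 1039 bases for Cyba, 3738 for Sod3, 3970 for Sod1, 8471 for Nox4 and 10008 for Sod2. A union can be longer than the transcripts present, so the order depends on this choice. Without division by length, Sod1 averaged 171 CPM and Cyba 45.9 CPM in C57BL/6J controls.

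As a share of the summed CPM per kb of the 3 catalytic subunits, Cybb made up 34.7% at most and 10.2% at least in C57BL/6J AngII libraries, a mean of 22.0 ± 12.3% (SD, n = 4), against 4.25 ± 0.852% in C57BL/6J controls. In 129S6/SvEvTac the Cybb share was 6.05 ± 1.04% with AngII and 4.51 ± 1.33% in controls. Nox4 made up nearly all of the rest in every group. Among the superoxide dismutases, Sod3 made up 89.3 ± 2.95% in C57BL/6J AngII libraries and 88.9 ± 0.894% in their controls, and 93.0 ± 0.806% in 129S6/SvEvTac AngII libraries and 87.3 ± 0.841% in their controls. These shares are a description of the same counts and were not tested separately. Their sizes depend on the exon lengths used, as the order above does.

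**Figure D2:**
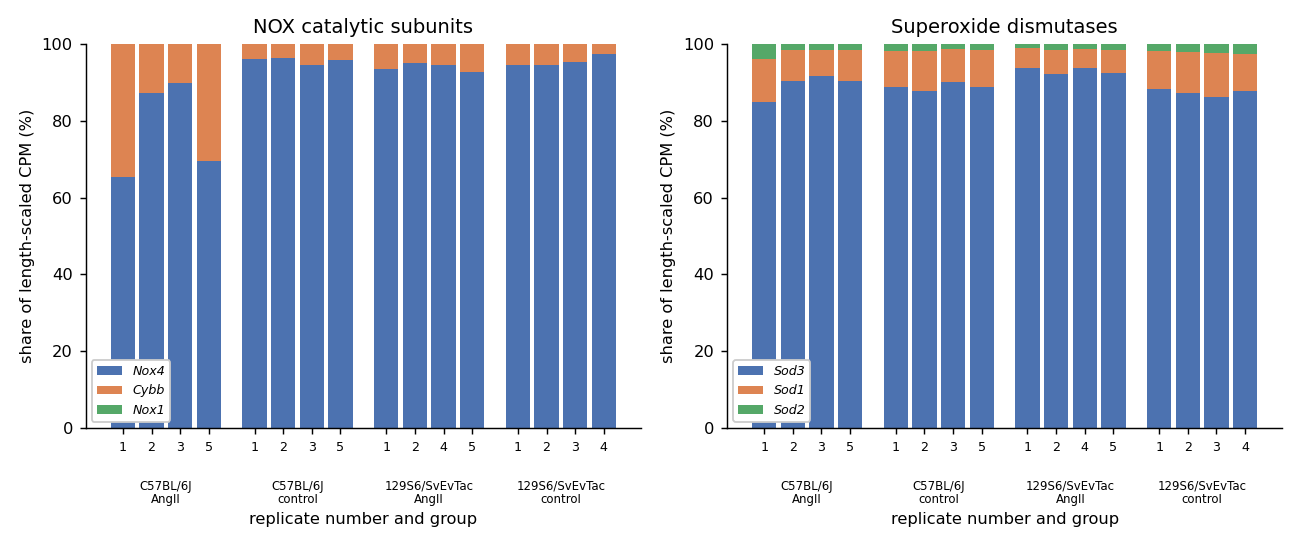
Share in percent of the length-scaled CPM of the 3 NOX catalytic subunits (left) and the 3 superoxide dismutases (right), 1 bar per library in 4 groups, with the replicate number under each bar. The Cybb share reaches 34.7% in a C57BL/6J AngII library and stays at or below 7.31% in every library of the other 3 groups.

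In 129S6/SvEvTac aortas a different member was called. Sod3, the extracellular dismutase, rose 1.70-fold with AngII, and it was the 1 member of 8 called, on a background of 7.71% of tested genes called higher and 4.47% called lower. The count of members called was thus near the background. The phagocyte oxidase genes, Cyba, Nox4, Sod1 and Sod2 did not pass the test. The members' median log2 fold change was 0.13, beside 0.0027 for all tested genes.

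Sod3 stood at 2311, 1909, 2431 and 2368 CPM in 129S6/SvEvTac AngII replicates 1, 2, 4 and 5, against 1375, 1393, 1183 and 1352 CPM in 129S6/SvEvTac control replicates 1, 2, 3 and 4. The lowest AngII library was far above the highest control. The log2 fold change was 0.77 ± 0.11 (edgeR adjusted p = 0.0004), and it stayed between 0.71 and 0.82 and called when each library was left out in turn.

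Ncf1 stood at 8.57, 6.77, 7.47 and 10.7 CPM in 129S6/SvEvTac AngII replicates 1, 2, 4 and 5, against 4.43, 6.73, 7.38 and 1.55 CPM in the controls. The ranges met at their edges, with control replicate 4 the lowest of all 16 libraries. The log2 fold change was 0.74, with a 95% interval of -0.04 to 1.52 (edgeR adjusted p = 0.226). Cybb stood at 17.0, 13.4, 12.8 and 20.0 CPM with AngII, against 13.2, 15.4, 13.5 and 8.47 CPM in controls, and the groups overlapped (log2 fold change 0.32, 95% interval -0.37 to 1.02, edgeR adjusted p = 0.593). Ncf4 stood at 3.0, 2.37, 1.47 and 3.54 CPM with AngII, against 2.46, 2.09, 1.86 and 1.29 CPM in controls, again with overlap (0.44, 95% interval -0.23 to 1.10, edgeR adjusted p = 0.421).

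Nox4 stood at 359.9, 373, 323 and 370.2 CPM in 129S6/SvEvTac AngII replicates 1, 2, 4 and 5, against 338, 395, 402 and 467 CPM in the controls, and the groups overlapped (log2 fold change -0.17, 95% interval -0.61 to 0.27, edgeR adjusted p = 0.675). Cyba stood at 39.0, 33.4, 35.8 and 38.2 CPM with AngII, against 49.2, 44.7, 38.5 and 41.9 CPM in controls (-0.25 ± 0.11, edgeR adjusted p = 0.168). A single control library kept the Cyba ranges from parting. Sod1 stood at 134, 139, 141 and 160.2 CPM with AngII, against 164, 180.1, 168 and 159 CPM in controls (-0.22 ± 0.10, edgeR adjusted p = 0.151). It passed the test in 6 of 27 alternatives, among them the fit of only the 2 groups of the strain (adjusted p = 0.0459). Sod2 stood at 71.2, 82.5, 85.4 and 109.5 CPM with AngII, against 79.2, 94.4, 83.3 and 105 CPM in controls, with full overlap (-0.05, edgeR adjusted p = 0.927).

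The difference between the AngII effects of the strains was tested as an interaction of strain and treatment. The effect was higher in C57BL/6J for Ncf4, Ncf1 and Cybb and lower in C57BL/6J for Sod3, so 3 of 8 members were called higher and 1 lower, on a background of 5.34% and 4.62% of tested genes. The median over the members was 0.40, beside 0.017 for all tested genes. For Nox4 the difference was -0.55, with a 95% interval of -1.17 to 0.08 (edgeR adjusted p = 0.265), so an effect confined to C57BL/6J was not shown. For Cyba it was 0.40 ± 0.16 (edgeR adjusted p = 0.126). Without C57BL/6J AngII replicate 3, Nox4 (-0.84) and Cyba (0.50) both passed.

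The difference was 1.94 ± 0.44 on the log2 scale for Ncf4 (edgeR adjusted p = 0.0144), 1.91 ± 0.52 for Ncf1 (0.0311), 1.54 ± 0.46 for Cybb (0.0469) and -0.81 ± 0.15 for Sod3 (0.00571). The Ncf4 and Sod3 calls held when each library was left out in turn. The Cybb and Ncf1 calls lay close to the threshold and were lost without C57BL/6J AngII replicate 1 or 5, C57BL/6J control 1, 2 or 5, 129S6/SvEvTac AngII 2 or 4, or 129S6/SvEvTac control 2 or 3, and that of Cybb also without 129S6/SvEvTac AngII 1 or control 1. Across these omissions the Cybb difference stayed between 1.22 and 1.82 and the Ncf1 difference between 1.64 and 2.23, with adjusted p-values of at most 0.0976 and 0.0703. Without C57BL/6J AngII replicates 1 and 5 together, the differences were 1.68 for Ncf4 (edgeR adjusted p = 0.0661), 1.55 for Ncf1 (0.141) and 0.70 for Cybb (0.271), and Sod3 alone was called.

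**Figure D3:**
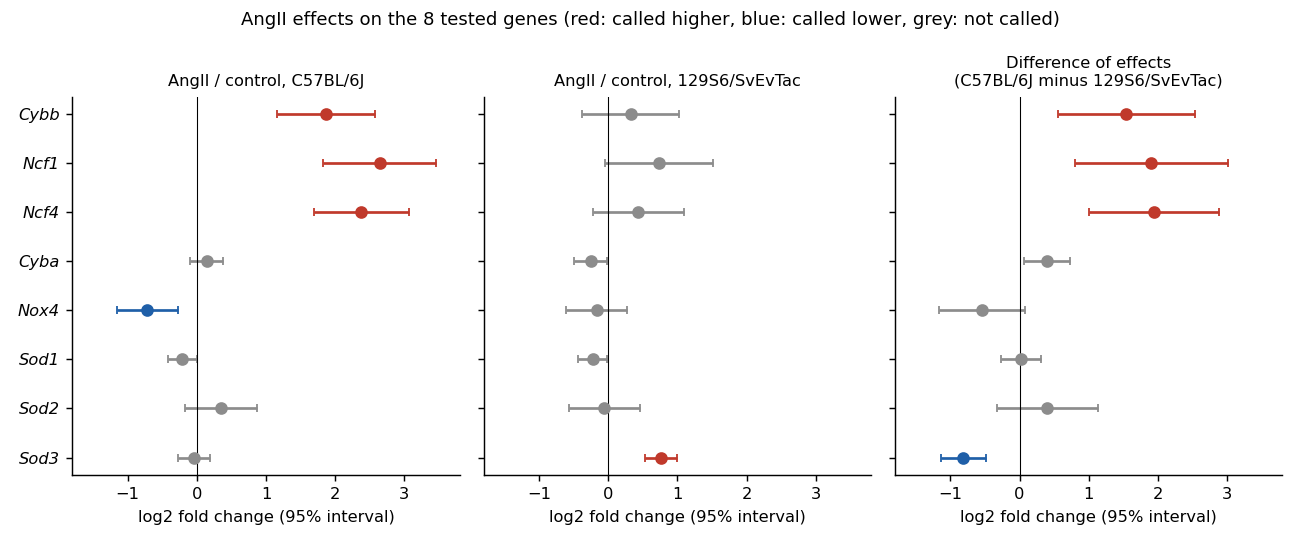
Log2 fold change of AngII over control in C57BL/6J and in 129S6/SvEvTac and the difference between them for the 8 tested members, points with 95% intervals on a common axis. Cybb, Ncf1 and Ncf4 lie to the right in C57BL/6J at 1.87, 2.64 and 2.38, while in 129S6/SvEvTac the 1 called member is Sod3 at 0.77.

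Compared under AngII, C57BL/6J aortas had more of the phagocyte oxidase and of its membrane partner than 129S6/SvEvTac aortas, and less Sod3. Of the 8 members, 4 were called higher and 1 lower, on a background of 16.8% and 14.6% of tested genes. This comparison uses the same AngII libraries as those above, so its values are given beside them and not as separate support. Cybb was 3.35-fold higher (log2 1.75 ± 0.33, edgeR adjusted p = 0.000996), Ncf1 3.91-fold (1.97 ± 0.37, 0.000913) and Ncf4 2.66-fold (1.41 ± 0.31, 0.00287). Without C57BL/6J AngII replicates 1 and 5 the Cybb value was 0.90 and still called. Cyba was 1.38-fold higher, at 42.2 to 56.2 CPM in C57BL/6J AngII libraries against 33.4 to 39.0 CPM in 129S6/SvEvTac AngII libraries (0.47 ± 0.11, edgeR adjusted p = 0.00477), a call lost without C57BL/6J AngII replicates 1 and 5 (0.31, adjusted p = 0.0899). Sod3 was 1.53-fold lower, at 1309 to 1597 CPM against 1909 to 2431 CPM (-0.61 ± 0.11, edgeR adjusted p = 0.000556). All 5 called members had ranges that did not overlap between the strains. The share of all tested genes with such ranges was not worked out, so this does not set the members apart. The median over the members was 0.29, beside 0.020 for all tested genes.

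In control aortas 0 of the 8 members differed between C57BL/6J and 129S6/SvEvTac by edgeR, while 10.4% of all tested genes were called in either direction. None had an unadjusted p below 0.05, and DESeq2 also called 0. Sod2 was at 70.6 to 76.1 CPM in C57BL/6J controls against 79.2 to 105 CPM in 129S6/SvEvTac controls, ranges that did not overlap, with a log2 fold change of -0.30 and a 95% interval of -0.81 to 0.21 (edgeR adjusted p = 0.531). It passed when only the 2 control groups were fitted (adjusted p = 0.0371), a fit that leaves out the C57BL/6J AngII libraries. Sod3 was 0.20 higher in C57BL/6J controls on the log2 scale, with an interval of -0.03 to 0.43 (edgeR adjusted p = 0.298). For Cybb and Ncf1 the intervals of -0.50 to 0.90 and -0.72 to 0.84 still allow sizeable differences. The members' median was 0.07, beside -0.00099 for all tested genes.

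Macrophage markers moved with the phagocyte oxidase genes. All 12 macrophage markers were called higher with AngII in C57BL/6J and 0 of 12 in 129S6/SvEvTac by edgeR. Their summed level ran from 1246 to 2477 CPM in C57BL/6J AngII libraries and from 454 to 599 CPM in C57BL/6J controls, and from 303 to 587 CPM in 129S6/SvEvTac AngII libraries and from 239 to 433 CPM in their controls. No macrophage marker was at 0 in any library. Of the 12, 11 also had a higher AngII effect in C57BL/6J than in 129S6/SvEvTac.

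Set against this sum, Cybb stood at 1.64 to 3.46 CPM per 100 macrophage marker CPM in C57BL/6J AngII libraries and 2.61 to 3.22 in C57BL/6J controls, so the ratios overlapped. Ncf1 stood at 1.498 to 2.28 against 0.840 to 1.22, and Ncf4 at 0.342 to 0.473 against 0.176 to 0.331, and for these genes the ratios did not overlap. Cyba stood at 2.26 to 3.54 against 8.99 to 9.33, a lower ratio, since its own level did not rise with the markers. In 129S6/SvEvTac the Cybb ratio was 3.16 to 4.43 with AngII and 3.04 to 3.81 in controls. The Ncf1 ratio there was 1.59 to 2.23 with AngII and 0.651 to 2.08 in controls, so with AngII it lay within the range of the C57BL/6J AngII libraries. The Ncf4 ratio there was 0.406 to 0.782 with AngII and 0.499 to 0.569 in controls, and these controls were above every C57BL/6J AngII library. With the mean log2 level of the 12 markers as a covariate, the AngII effect in C57BL/6J was -0.32 for Cybb (edgeR adjusted p = 0.719), 0.38 for Ncf1 (0.748) and 0.68 for Ncf4 (0.437), and none was called. In the same fit 0 members were called for the difference of effects and for the strains with AngII. Sod3 kept its size there, at -0.94 for the difference (edgeR adjusted p = 0.0792) and -0.78 for the strains with AngII (0.0972), against -0.81 and -0.61 without the score. The marker levels of the C57BL/6J AngII libraries did not overlap with those of any other group, so AngII in this strain and the macrophage signal cannot be told apart by that fit.

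**Figure D4:**
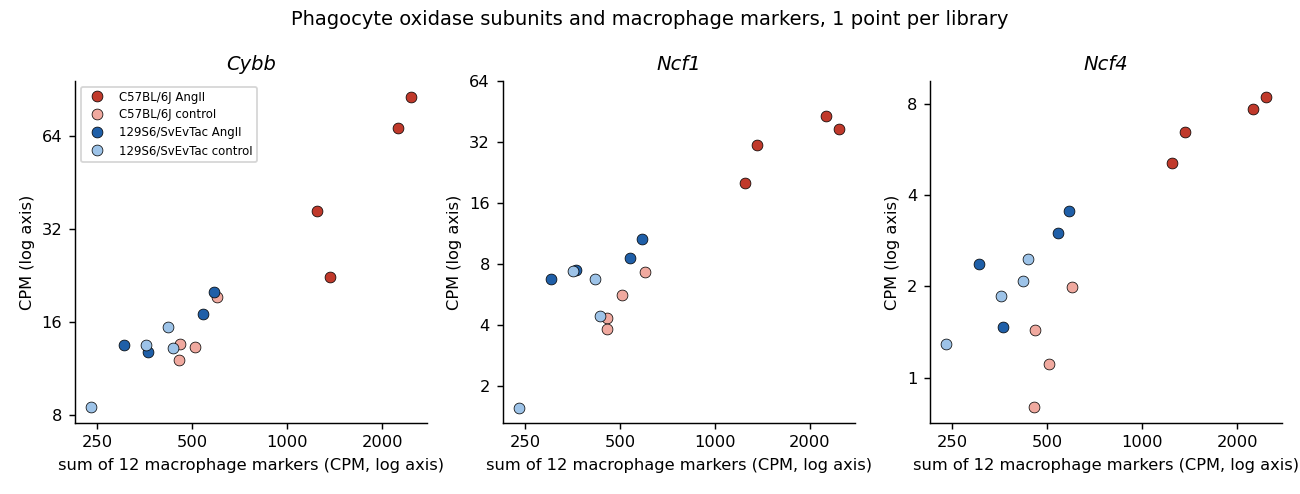
Level of Cybb, Ncf1 and Ncf4 in CPM against the summed CPM of 12 macrophage markers, both on log axes, 1 point per library, coloured by group. The 4 C57BL/6J AngII libraries lie apart at marker sums of 1246 CPM and more, and the libraries of the other 3 groups lie at 599 CPM and less.

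Neutrophils carry the same oxidase, and their 8 markers were low. Ly6g, Mpo and Elane were below the count filter, and 0 of the 5 neutrophil markers tested were called with AngII in either strain by edgeR. The summed level was 9.23, 12.9, 10.1 and 13.9 CPM in C57BL/6J AngII replicates 1, 2, 3 and 5, against 1.83, 1.32, 34.9 and 9.89 CPM in the controls. Control replicate 3 was above every AngII library, and control replicate 5 lay within their range. Csf3r, the receptor for granulocyte colony-stimulating factor, averaged 6.26 ± 2.19 CPM with AngII and 3.02 ± 3.26 CPM in these controls (SD, n = 4). Cxcr2 also had a higher mean with AngII (1.39 against 0.697 CPM). The means of S100a8 (1.19 against 3.07 CPM), S100a9 (1.84 against 4.35 CPM) and Retnlg (0.667 against 0.770 CPM) were lower with AngII. Compared between the strains with AngII, 1 of the 5 markers was called higher in C57BL/6J, at a median log2 fold change of 1.71. The background was 16.8% of tested genes. The sums in 129S6/SvEvTac AngII libraries were 2.98 to 4.43 CPM, below every C57BL/6J AngII library. Between the control groups 0 of the 5 were called, at a median of 2.99. The part of neutrophils in the member results was not tested. None of the 8 T and B cell markers was called in either strain. Adipocyte markers were all 8 called higher with AngII in C57BL/6J, at sums of 100.3 to 2355 CPM against 42.4 to 199.999 CPM in controls, and 0 of 8 were called in 129S6/SvEvTac. Their part in the member results was not tested beyond the covariate fit. There the C57BL/6J effect was 1.14 for Cybb (edgeR adjusted p = 0.044), 2.25 for Ncf1 (0.00476) and 1.91 for Ncf4 (0.00249), all called, and Nox4 was not called. In that fit the difference of effects was no longer called for Cybb (1.03, adjusted p = 0.195) and Ncf1 (1.64, 0.103). Fibroblast markers were called higher for 6 of 8 in C57BL/6J and 4 of 8 in 129S6/SvEvTac, where Sod3 rose. Their sums ran from 12836 to 22692 CPM in 129S6/SvEvTac AngII libraries, against 5321 to 8217 CPM in controls, and from 23925 to 34793 CPM in C57BL/6J AngII libraries, against 6089.6 to 7267 CPM in controls, where Sod3 was not called. Their part in the Sod3 result was not tested.

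Smooth muscle markers moved with Nox4. All 8 were called lower with AngII in C57BL/6J, at sums of 12769 to 30431 CPM against 40324 to 43625 CPM in controls, and 0 of 8 in 129S6/SvEvTac. Per 1000 CPM of these markers Nox4 stood at 14.5, 13.0, 15.4 and 15.8 CPM in C57BL/6J AngII replicates 1, 2, 3 and 5, against 12.5, 11.7, 11.1 and 10.6 CPM in the controls. Relative to the markers, Nox4 was thus higher in every AngII library than in any control, the reverse of its own level. Replicate 3, with the highest Nox4 of the AngII libraries, also had the highest marker sum of the 4.

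Some of the remaining subunits and partners of the oxidases also changed. Of 11 genes in the list 8 were tested, and Nox3, Duoxa2 and Noxa1 were below the filter. With AngII 2 were called higher and 1 lower in C57BL/6J, and 0 higher and 1 lower in 129S6/SvEvTac. For this list and those below, the background is the 21.8% of all tested genes called higher and 17.1% called lower in C57BL/6J, and 7.71% and 4.47% in 129S6/SvEvTac, so the counts of the remaining subunits were near it. Rac2, the Rac GTPase of blood cells, rose by 1.94 ± 0.36 in C57BL/6J (edgeR adjusted p = 0.000566). Cybc1, the chaperone that the Cybb and Cyba dimer needs to mature, rose by 0.58 ± 0.09 (0.00021), with 68 bases of its exons antisense to Hexdc. With the macrophage score as a covariate neither was called, Rac2 at -0.39 (adjusted p = 0.647) and Cybc1 at 0.65 (0.073), a value as large as without it. The Rac2 call was also lost with the adipocyte score (1.32, adjusted p = 0.0506).

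Noxo1, the organizer that works with NOX1, was called lower in both strains, by log2 fold changes of -1.69 ± 0.26 in C57BL/6J (edgeR adjusted p = 0.000122) and -0.87 ± 0.25 in 129S6/SvEvTac (0.0345), but 2122 bases of its exons lie antisense to Tbl3. The 129S6/SvEvTac call was lost without any 1 of the 4 AngII libraries or of control replicates 2, 3 and 4, with adjusted p-values of at most 0.0945. It was also lost with the replicate block (-0.83, adjusted p = 0.102) and the adipocyte score (-0.84, 0.0507). Rac1, the widely expressed Rac GTPase with 2309 exon bases antisense to Daglb, and Duox1 and Duox2, the dual oxidases of epithelia, did not pass in either strain. Rac1 stood at 372 to 412 CPM with AngII against 81.1 to 362 CPM in controls in C57BL/6J. In 129S6/SvEvTac it stood at 367 to 416 CPM against 80.7 to 365 CPM. The control SDs of 130 and 161 CPM were wide, so the missing call does not show Rac1 to be unchanged.

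Of 4 genes that supply copper to Sod1 and Sod3, 3 were called higher in C57BL/6J and 1 in 129S6/SvEvTac. Slc31a1, the copper importer of the cell surface, averaged 52.6 ± 6.07 CPM in C57BL/6J AngII libraries and 19.4 ± 1.51 CPM in their controls, and 27.2 ± 4.40 CPM in 129S6/SvEvTac AngII libraries and 18.9 ± 1.19 CPM in their controls (SD, n = 4). Its log2 fold change was 1.44 ± 0.12 in C57BL/6J (edgeR adjusted p = 1.04e-06) and 0.53 ± 0.11 in 129S6/SvEvTac (0.00811), and the effects differed by 0.91 ± 0.16 (0.00424). Atp7a, the pump that loads copper onto Sod3 in the secretory pathway, rose by 1.0 ± 0.15 in C57BL/6J (edgeR adjusted p = 9.62e-05) and was at 0.29 ± 0.15 in 129S6/SvEvTac (0.24). Atox1, the copper chaperone that hands copper to Atp7a, rose by 0.47 ± 0.13 in C57BL/6J (0.00942), a call lost without C57BL/6J AngII replicates 1 and 5 (0.28, adjusted p = 0.164), with the adipocyte score (0.21, 0.37) and with the macrophage score (-0.11, 0.849), and, at 0.45, with only the groups compared (0.0555). With library size only, the 129S6/SvEvTac effect of Slc31a1 was 0.37 and not called (adjusted p = 0.0522). Sod3 itself was not called in C57BL/6J. Ccs, the copper chaperone of Sod1, did not pass in either strain.

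Hydrogen peroxide, the product of the dismutases, is removed by catalase, peroxidases and peroxiredoxins. Of 12 such genes tested, 5 were called higher with AngII in C57BL/6J and 2 in 129S6/SvEvTac, and 0 lower. Gpx7 and Gpx8, peroxidases of the endoplasmic reticulum, rose in both strains: Gpx7 by 1.41 ± 0.17 in C57BL/6J (edgeR adjusted p = 1.41e-05) and 0.83 ± 0.16 in 129S6/SvEvTac (0.0043), and Gpx8 by 1.0 ± 0.11 in C57BL/6J (7.66e-06) and 0.67 ± 0.11 in 129S6/SvEvTac (0.00104). The difference of their effects between the strains, 0.58 ± 0.23 for Gpx7 (0.123) and 0.33 ± 0.15 for Gpx8 (0.184), did not pass. Cat, catalase, rose by 0.64 ± 0.19 in C57BL/6J (edgeR adjusted p = 0.0135), a call lost without C57BL/6J AngII replicate 1, when it was 0.43 with an adjusted p of 0.0542. It was also lost with only the groups compared (0.63, 0.0671), with the adipocyte score (0.043, 0.877), with the macrophage score (-0.32, 0.629) and without C57BL/6J AngII replicates 1 and 5 (0.087, 0.525).

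In the thioredoxin and glutathione systems 3 of 14 genes were called higher and 2 lower in C57BL/6J, and 2 higher and 1 lower in 129S6/SvEvTac. Txnrd1, cytosolic thioredoxin reductase, rose by 0.62 ± 0.12 in C57BL/6J (edgeR adjusted p = 0.000717) and Srxn1, which repairs overoxidized peroxiredoxins, by 0.48 ± 0.11 (0.00244). Srxn1 was also called higher in 129S6/SvEvTac, at 0.41, a call lost with library size only and with the replicate block. Txnrd3 was called lower in both strains, at -1.03 in C57BL/6J and -0.40 in 129S6/SvEvTac. The 129S6/SvEvTac call of Txnrd3 was lost with the replicate block (-0.37, edgeR adjusted p = 0.121). Msrb1, a methionine sulfoxide reductase, was lower in C57BL/6J by a log2 fold change of -0.70 ± 0.09 (2.73e-05), and its effect differed between the strains by -0.79 ± 0.12 (0.0023). Gsr, glutathione reductase, differed between the strains with either treatment. It averaged 44.6 ± 4.29 CPM in C57BL/6J AngII libraries against 81.4 ± 4.45 CPM in 129S6/SvEvTac AngII libraries, and 41.0 ± 1.10 CPM in C57BL/6J controls against 79.0 ± 1.70 CPM in 129S6/SvEvTac controls. The log2 fold changes were -0.87 ± 0.07 with AngII (edgeR adjusted p = 4.3e-07) and -0.95 ± 0.07 in controls (1.75e-07). It was not called for AngII in C57BL/6J (0.186) or 129S6/SvEvTac (0.758).

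Nrf2, encoded by Nfe2l2, is the transcription factor that raises antioxidant genes. Of this factor, its partner Keap1 and 6 targets, 4 were called higher and 1 lower in C57BL/6J, and 0 higher and 1 lower in 129S6/SvEvTac. Hmox1, heme oxygenase, averaged 78.5 ± 71.9 CPM in C57BL/6J AngII libraries and 9.11 ± 0.402 CPM in their controls, a log2 fold change of 3.11 ± 0.42 (edgeR adjusted p = 4.81e-05). Its effect was 2.34 ± 0.56 higher in C57BL/6J than in 129S6/SvEvTac (0.0188), and 1.49 higher without C57BL/6J AngII replicate 3. Slc7a11, the cystine importer, and Mgst1, a membrane glutathione transferase, were also called higher in C57BL/6J. The Mgst1 call, at 1.69, was lost with the adipocyte score (0.21, adjusted p = 0.605), with the macrophage score (-1.15, 0.191) and without C57BL/6J AngII replicates 1 and 5 (0.61, 0.195). Nqo1, a quinone reductase and a standard Nrf2 target, was lower instead, by log2 fold changes of -1.05 ± 0.13 in C57BL/6J (2.2e-05) and -0.55 ± 0.13 in 129S6/SvEvTac (0.0113). Targets of 1 factor thus moved in both directions. Nfe2l2 itself averaged 114 ± 14.4 CPM with AngII and 91.0 ± 5.47 CPM in controls in C57BL/6J. In 129S6/SvEvTac it averaged 69.0 ± 7.04 CPM with AngII and 85.2 ± 8.18 CPM in controls. On the log2 scale its AngII effect was 0.63 higher in C57BL/6J, and its level with AngII 0.73 higher. Both were called, and no alternative ended either call, though their sizes changed with the macrophage score.

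Among 8 other sources of superoxide or nitric oxide, 2 were called higher and 2 lower in C57BL/6J, and 1 of each in 129S6/SvEvTac. Xdh, xanthine dehydrogenase, rose by 1.33 ± 0.25 in C57BL/6J (edgeR adjusted p = 0.000666), a call lost with the adipocyte score (0.53, adjusted p = 0.0959) or the macrophage score (-0.45, 0.403) as a covariate. Nos2, the inducible nitric oxide synthase, averaged 2.79 ± 1.85 CPM in C57BL/6J AngII libraries and 0.0293 ± 0.0587 CPM in their controls and was called higher (0.00309). Maoa, a monoamine oxidase of mitochondria that makes hydrogen peroxide, was lower in C57BL/6J (-0.48 ± 0.11, edgeR adjusted p = 0.00243, and 0.0776 at -0.35 with the adipocyte score), and its effect differed between the strains (-0.67 ± 0.15, 0.0143). Maob was called lower in both strains, at -0.57 in C57BL/6J and -0.52 in 129S6/SvEvTac. Its C57BL/6J call was lost with the macrophage score (-1.04, edgeR adjusted p = 0.0773). Its 129S6/SvEvTac call was lost with the replicate block (-0.57, edgeR adjusted p = 0.0765). Cyp1b1, a cytochrome P450, rose by 0.77 ± 0.17 in 129S6/SvEvTac (0.00888). With the macrophage score as a covariate the C57BL/6J effects were also not called for Noxo1 (-1.74), Nos2 (3.03), Gpx7 (0.78), Srxn1 (0.60), Msrb1 (-0.53), Nqo1 (-0.65) and Maoa (-0.19), with adjusted p-values of 0.0805 for Noxo1 and 0.668 for Maoa and those of the other genes between these. In that fit the strain differences of the AngII effect were not called for Hmox1 (3.21, edgeR adjusted p = 0.0669), Slc31a1 (0.63, 0.22), Msrb1 (-0.65, 0.126) and Maoa (-0.42, 0.424).

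**Figure D5:**
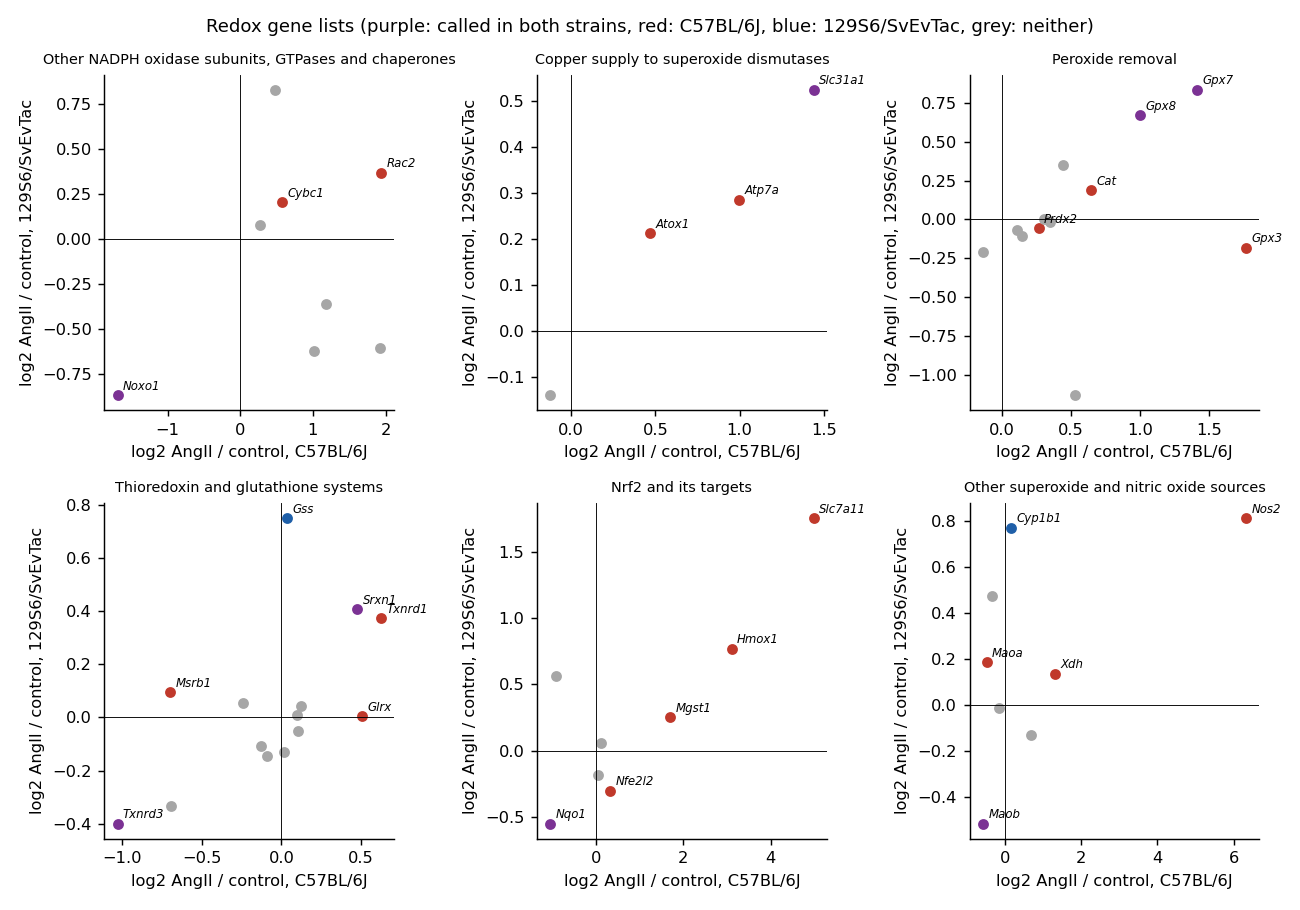
Log2 fold change of AngII over control in C57BL/6J (x axis) against 129S6/SvEvTac (y axis) for the tested genes of 6 redox gene lists, 1 panel per list with its own axis ranges, coloured by the strain in which a gene was called. Slc31a1, Gpx7, Gpx8 and Srxn1 were called higher in both strains, and Noxo1, Nqo1, Txnrd3 and Maob were called lower in both. Noxo1 was at -1.69 in C57BL/6J and -0.87 in 129S6/SvEvTac. The 129S6/SvEvTac calls of Srxn1, Noxo1, Txnrd3 and Maob were each lost when some single libraries were left out.

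Genes with the most similar pattern were sought for the 3 members whose log2 CPM varied most over the 16 libraries, with an SD of 1.29 for Ncf1, 1.0 for Ncf4 and 0.91 for Cybb. Nox4 (0.41), Sod2 (0.34), Sod3 (0.33), Cyba (0.22) and Sod1 (0.17) were under the minimum of 0.5. Likeness was the root mean square difference of centred log2 CPM over the 16 libraries, among 12671 protein-coding genes. Nearest to Cybb were Unc93b1 (0.23), a chaperone of endosomal Toll-like receptors, Marcks (0.27), a substrate of protein kinase C, and Mndal (0.28). Nearest to Ncf1 were Ptpn7 (0.32), a phosphatase of blood cells, Coro1a (0.35), an actin-binding coronin of leukocytes, and Lyn (0.35), a Src family kinase. Nearest to Ncf4 were Ednra (0.32), the endothelin A receptor, Rac2 (0.33) and Ahr (0.33), the aryl hydrocarbon receptor. These values describe the 16 libraries and share their 4 groups, so no test goes with them.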

How the data were processed

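RNA came from crushed whole descending thoracic aorta by column purification with DNase, and HISAT2 aligned the reads to mm10 (GRCm38) before StringTie quantified Gencode genes, per the labels' protocols. DESeq2 1.26.0 and R 3.6.2 are named in the submitters' processing notes, with no role. The authors deposited expected counts for each gene, as whole numbers. The Gencode release and strandedness were not given in the sources used here, nor was how the counts were derived. Overlapping and antisense genes are therefore uncertain. Library totals ran from 42116120 to 121573945 counts. Replicates of a group all differed, by a chi-square of at least 37.6 per degree of freedom.

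GENCODE M21 on GRCm38 matched 52489 genes by ID, 49121 with the same version, and left 147 unmatched. The counts went into edgeR 4.0.16 (limma 3.58.1, R 4.3.3): filterByExpr with a minimum count of 10, TMM factors, and a robust quasi-likelihood model of the 16 libraries with a mean for each group. A call was an adjusted p (Benjamini-Hochberg, 17125 genes) below 0.05, and each SE came from the fold change and its F value. Log2 CPM used a prior count of 2, and levels per kb were divided by the union of a gene's exons. The procedure was tested on simulated data.

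The members and lists were chosen with earlier results of these data known, and 1 gene of a list is not reported here. The rule for named genes took all members and, per list and comparison, up to 3 called genes per direction in order of p. Which of them are described was decided after seeing how they behaved when libraries were left out, and genes named as not passing were chosen after their values were seen. The likeness rule took, for members with an SD of log2 CPM of at least 0.5, the 3 nearest protein-coding genes whose mean CPM reached 1. Alternatives were other scaling (RLE, library size only), no filter or one asking for 1 CPM in 4 libraries, DESeq2 1.42.0 in place of edgeR, fits of the compared groups alone, the replicate number as a block, mean log2 CPM of adipocyte or macrophage markers as a covariate (the score), omission of each library, and C57BL/6J AngII 1 and 129S6/SvEvTac AngII 5 left out. Leaving out C57BL/6J AngII 1 and 5 was added after seeing the data.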

Additional observations from a re-analysis of the deposited data

Results flagged for a closer look

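Sod2 in C57BL/6J AngII replicate 1 stood at 166 CPM, far from the other 3 libraries of its group at 66.3 to 75.4 CPM. It was the 1 of 33 sets of 4 libraries with such a gap by Dixon's test, and chance flags about 1 in 20. The same library had the highest adipocyte marker sum (2355 CPM) and a macrophage marker sum of 2246 CPM, whose part in the Sod2 value was not tested.

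The AngII effect differed between the strains for 4 members by edgeR's test of the interaction. On the log2 scale, C57BL/6J minus 129S6/SvEvTac, the difference was 1.54 for Cybb, 1.91 for Ncf1, 1.94 for Ncf4 and -0.81 for Sod3. The control libraries of each strain enter all 4 values.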

How the results depend on the processing

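Of the members called, AngII gave 4 in C57BL/6J and 1 in 129S6/SvEvTac, the difference of effects 4, and the strains 5 with AngII and 0 in controls. With the macrophage score as a covariate these counts were 1, 3, 0, 0 and 1. In C57BL/6J all 4 calls were lost and Sod1 was gained. In 129S6/SvEvTac Cyba and Sod1 were gained beside Sod3, and in controls Ncf4 was gained. Reversed under the macrophage score were, for AngII in C57BL/6J, Cybb (-0.32), Nox4 (0.071), Atox1 (-0.11), Mgst1 (-1.15), Rac2 (-0.39), Xdh (-0.45) and Cat (-0.32). Reversed for the difference were Cybb (-0.35), Ncf1 (-0.11) and Xdh (-0.34). Reversed for the strains with AngII were Cyba (-0.20), Cybb (-0.63), Ncf1 (-0.51), Ncf4 (-0.42) and Rac2 (-1.08). The score takes its highest values in the C57BL/6J AngII libraries alone, so it is confounded with that group. In 129S6/SvEvTac the count was 3 with library size only, and 2 with only the groups compared, with the adipocyte score, and without either pair of libraries, through Sod1 and, with library size only, Cyba. For the difference it was 2 with no filter, with the adipocyte score and without C57BL/6J AngII 1 and 129S6/SvEvTac AngII 5, and 1 without C57BL/6J AngII 1 and 5. With each library left out in turn it ran from 2 to 6, for AngII in C57BL/6J from 4 to 5, for the strains with AngII from 5 to 6, and in 129S6/SvEvTac and controls it stayed at 1 and 0. In controls the fit of the compared groups alone also gave 1, Sod2. The replicate block left all counts at 4, 1, 4, 5 and 0. Of 19 pairs of libraries with the same replicate number, 3 correlated above 0.1 (-0.06 to 0.15). Among them were replicates 1 of AngII and control in C57BL/6J (0.145) and in 129S6/SvEvTac (0.111). With 4 libraries per group such weak correlations cannot settle whether the numbers pair the samples. Only the groups compared gives no value for the difference, which needs all 4 groups. With library size only, the median of all genes moved to -0.16 in 129S6/SvEvTac, and 25.2% of called genes were higher there against 63.3% with TMM. In C57BL/6J the shares were 45.4% and 56.1%, and for the difference 65.2% and 53.6%. Over all alternatives and members, 1007 values kept their side of the threshold, 38 lost and 19 gained a call, and 8 reversed. A turn of sign counted as reversed only where either fit was called, so the 1007 include uncalled values that turned sign. For other pathway genes called, 1530 held, 207 lost the call and 7 reversed. Depth limits Nox1, at most 5 counts in a library.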
